A study of Homo sapiens with 4 samples.

Results

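The pericentromeric regions described here are the 5 Mb of assayed sequence on either side of the centromere of 17 human autosomes, read from a chromatin map of the histone variant macroH2A1. In both ChIP replicates the longest stretch without data on each chromosome was taken as the centromere, and the sequence outward from its 2 edges was cut into 100-kb windows. This gave 50 windows on each of 34 chromosome arms and 1700 in all. Of these, 1529 windows (89.9%) had at least 50% of their bases in blocks of both replicates and form the set described, out of 23205 windows kept by the same criterion on the same autosomes. The other 21676 windows, over 5 Mb from a centromeric edge, are called the rest. Chromosomes 13, 14, 15, 21 and 22, whose short arms carry ribosomal DNA and satellite arrays, were not used. The choice of windows used no ChIP value.

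The study sequenced macroH2A1 ChIP and input DNA from IMR90, a line of normal human lung fibroblasts, with 2 ChIP replicates, described as biological in the series design, and 2 inputs. The labels name no treatment: cells grew in medium with serum to near confluence, and the ChIP samples form 1 group. Chromatin was fixed with formaldehyde, sheared to about 500 bp and precipitated with an antibody to macroH2A1. No value of a separate no-antibody control was used here, and a ChIP map holds no expression by which the cell type could be checked.

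The centromere is the site on which the kinetochore assembles, and in humans it lies on long arrays of alpha-satellite DNA, a tandem repeat in which many monomers carry the CENP-B box, the binding site of the protein CENP-B. The flanking pericentromeric DNA holds other satellites, recent segmental duplications and few genes, and in many cell types it is packed as constitutive heterochromatin marked by H3K9 methylation and HP1 proteins. MacroH2A1 is a variant of histone H2A with a large globular macro domain on its C-terminal side. It is known from the inactive X chromosome, from broad domains over repressed developmental genes and from heterochromatin foci of senescent fibroblasts, and it is generally low over active genes.

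The values are the authors' log2 ratios of ChIP over input, given per genome segment. A window's value is the mean over its assayed bases, weighted by length, and 0 means that ChIP and input held equal shares. The ratio is relative within each library: the mean log2 ratio over all autosomes was -0.32 in replicate 1 and -0.34 in replicate 2, so a negative value does not show an absence of macroH2A1. Read depth is unknown, so no counting interval could be given, and the error of each value is the SD over the 2 replicates. With 1 group of 2 replicates no contrast between samples can be tested, and every comparison of regions is a description. Windows also share segments: the 1529 windows drew on 2419 segments in replicate 1 and 1319 in replicate 2, and 793 windows (51.9%) lay within 1 segment of replicate 2. They are not independent measurements.

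Satellite monomers near the edges of the assembled sequence are shown because the replicates often gave opposite signs in windows of alpha-satellite and the same sign in windows of the GGAAT repeat. Their windows begin within 0.1 Mb of the edge, except those on 4p (0.5 Mb) and 9q (1.3 Mb). Each alpha-satellite stretch is about a monomer long, and the capitals mark a match to the CENP-B box core, which was searched as TTCG, any 4 bases, A, any 2 bases and CGGG. In the GGAAT repeat, the unit of the human satellites II and III, each GGAAT is in capitals. The alpha-satellite stretches lie at chr2:92272904-92273074 on the plus strand, chr9:66818627-66818797 on the plus strand, chr10:42527957-42528127 on the minus strand and chr20:26267906-26268076 on the plus strand, and the GGAAT stretch at chr4:49151413-49151532 on the minus strand, all in build GRCh37 (hg19).
alpha-satellite, 2p: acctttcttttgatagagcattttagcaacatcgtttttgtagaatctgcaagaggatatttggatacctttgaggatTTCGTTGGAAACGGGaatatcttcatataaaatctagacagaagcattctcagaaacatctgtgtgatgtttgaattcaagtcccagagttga
alpha-satellite, 9q: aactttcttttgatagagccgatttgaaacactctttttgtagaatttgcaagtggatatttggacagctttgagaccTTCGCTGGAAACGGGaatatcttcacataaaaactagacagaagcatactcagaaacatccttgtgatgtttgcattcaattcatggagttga
alpha-satellite, 10q: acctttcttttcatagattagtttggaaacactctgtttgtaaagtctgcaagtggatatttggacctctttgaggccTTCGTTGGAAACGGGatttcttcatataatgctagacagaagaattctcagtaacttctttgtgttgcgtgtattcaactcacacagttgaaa
alpha-satellite, 20p: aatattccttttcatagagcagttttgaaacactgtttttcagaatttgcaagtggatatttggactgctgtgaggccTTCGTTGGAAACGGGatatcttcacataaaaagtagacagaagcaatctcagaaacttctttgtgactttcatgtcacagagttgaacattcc
GGAAT repeat, 4p: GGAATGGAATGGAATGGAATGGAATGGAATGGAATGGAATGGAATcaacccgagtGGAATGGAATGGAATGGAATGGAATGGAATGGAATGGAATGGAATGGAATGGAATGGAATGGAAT
The log2 ratio was 0.58 and 0.19 in replicates 1 and 2 over the 2p stretch and 0.51 and 0.22 over the 10q stretch, above 0 in both. It was 0.25 and -0.43 over the 9q stretch and 0.47 and -0.34 over the 20p stretch, with opposite signs in the replicates. Over the 4p GGAAT repeat it was -0.62 and -0.87, below 0 in both. A stretch does not give the sign of its 100-kb window. The windows holding the 10q and 9q stretches had -0.06 and -0.39 and -0.15 and -0.43, below 0 in both replicates. Those of 2p (0.21 and 0.05) and 20p (0.01 and -0.34) had the signs of their stretches. Alpha-satellite windows lay on 18 arms, and the stretches printed are examples that leave out some windows with more box matches.

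Promoters of genes from both ends of the pericentromeric range are shown to display how they differ in CG dinucleotides, which are in capitals and are the sites of DNA methylation. Each runs from 250 bases before to 50 bases after the gene's start in the RefSeq table (build GRCh38.p14) and was matched letter for letter to GRCh37. HOPX encodes a small homeodomain protein of heart and lung development, and its promoter lies at chr4:57547413-57547712 on the minus strand. REG4 encodes a secreted lectin of the gut (chr1:120354034-120354333, minus strand). CTAGE1, also among the highest genes, encodes a tumour antigen (chr18:19997829-19998128, minus strand). HNRNPF encodes an RNA-binding protein used in splicing in most cells (chr10:43904256-43904555, minus strand). USP22 encodes the ubiquitin protease of the SAGA coactivator complex (chr17:20946275-20946574, minus strand).
HOPX: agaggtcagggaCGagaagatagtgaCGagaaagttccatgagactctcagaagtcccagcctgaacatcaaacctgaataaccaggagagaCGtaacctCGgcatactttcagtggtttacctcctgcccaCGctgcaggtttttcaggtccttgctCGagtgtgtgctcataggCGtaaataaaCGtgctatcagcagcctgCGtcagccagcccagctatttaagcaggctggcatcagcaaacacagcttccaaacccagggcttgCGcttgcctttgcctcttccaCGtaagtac
REG4: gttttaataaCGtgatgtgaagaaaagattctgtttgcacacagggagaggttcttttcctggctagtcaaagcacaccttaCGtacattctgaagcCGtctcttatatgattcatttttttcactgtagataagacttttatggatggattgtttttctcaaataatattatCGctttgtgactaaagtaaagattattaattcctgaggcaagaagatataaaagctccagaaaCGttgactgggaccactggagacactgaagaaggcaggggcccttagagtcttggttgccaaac
CTAGE1: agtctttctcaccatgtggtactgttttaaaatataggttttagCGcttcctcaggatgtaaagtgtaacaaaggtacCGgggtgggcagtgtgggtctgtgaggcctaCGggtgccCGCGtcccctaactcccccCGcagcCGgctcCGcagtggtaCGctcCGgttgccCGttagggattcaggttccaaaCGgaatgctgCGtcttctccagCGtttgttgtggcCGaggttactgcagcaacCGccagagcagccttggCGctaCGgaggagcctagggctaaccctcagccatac
HNRNPF: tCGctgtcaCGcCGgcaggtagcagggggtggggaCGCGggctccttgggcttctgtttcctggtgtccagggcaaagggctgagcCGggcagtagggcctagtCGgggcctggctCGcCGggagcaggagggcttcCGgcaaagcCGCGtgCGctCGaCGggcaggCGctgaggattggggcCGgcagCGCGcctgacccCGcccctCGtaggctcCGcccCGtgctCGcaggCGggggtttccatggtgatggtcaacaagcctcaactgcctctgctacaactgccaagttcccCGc
USP22: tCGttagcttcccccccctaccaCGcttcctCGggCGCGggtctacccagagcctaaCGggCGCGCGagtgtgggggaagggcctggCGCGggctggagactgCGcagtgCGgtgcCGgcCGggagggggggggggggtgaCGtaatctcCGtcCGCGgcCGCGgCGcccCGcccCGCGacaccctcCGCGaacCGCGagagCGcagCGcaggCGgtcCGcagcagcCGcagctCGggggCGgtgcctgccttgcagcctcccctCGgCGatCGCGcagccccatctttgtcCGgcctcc
The log2 ratio over these 300 bases was 1.41 and 1.54 at HOPX and 1.32 and 1.24 at REG4. It was -2.73 and -3.03 at HNRNPF and -2.33 and -2.70 at USP22. The HOPX and REG4 promoters held 11 and 5 CG, and the HNRNPF and USP22 promoters held 26 and 41. CTAGE1, also among the highest genes (1.45 and 1.36 over these bases), held 18, above the median of all promoters. The median over all 35116 promoters in the table was 14.

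The 17 stretches taken as centromeres were 3.00 to 21.05 Mb long, and 14 of them were under 4 Mb. Each overlapped the longest run of unknown bases (N) of its chromosome and was itself at least 99.6% N, so the edges are those of the assembly and not of the biological centromere. The long arrays of alpha-satellite are in the missing sequence. Of the windows not kept, 82 were on chromosome 9 and 55 were at least 50% N, and the 150 with any assayed base averaged -0.27 and -0.41. The arms of chromosome 9 kept 8 and 10 windows of 50, so they say little of that chromosome. Windows just inside the assayed limit (50 to 60%, n = 18) averaged -0.51 and -0.54, and windows just outside it (40 to 50%, n = 22) averaged -0.44 and -0.41. At the distance limit, the last windows inside 5 Mb (n = 30) averaged -0.32 and -0.37 and the first windows beyond (n = 29) averaged -0.50 and -0.57.

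By these ratios, assembled pericentromeric sequence was on average no higher in macroH2A1 than other autosomal sequence, and slightly lower. Its windows averaged a log2 ratio of -0.39 in replicate 1 and -0.44 in replicate 2 (mean -0.42, SD 0.04, n = 2), against -0.32 and -0.34 in the rest (mean -0.33, SD 0.02, n = 2). The difference was -0.07 and -0.10 (mean -0.09, SD 0.02, n = 2), with the same sign in both replicates and small beside the spread of single windows, whose SD was 0.69 in pericentromeric sequence and 0.77 in the rest. The median of both replicates' mean was -0.56 in pericentromeric windows, -0.42 in the rest and -0.44 over all kept windows.

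The distributions differed mainly in their upper part. Of the 1529 pericentromeric windows, 322 (21.1%) were above 0 in both replicates, against 28.9% of the rest and 28.4% of all kept windows. In replicates 1 and 2 taken alone, 25.2% and 23.6% of pericentromeric windows were above 0. Below 0 in both replicates were 1105 windows (72.3%), against 64.3% of all kept windows. Opposite signs were found in 102 windows (6.67%), close to the 7.35% of all kept windows. Below -1 in both replicates were 201 windows (13.1%), which is near the 13.7% of all kept windows, so strongly depleted windows were about as frequent as elsewhere. The middle range was fuller: 54.2% of pericentromeric windows lay between -1 and 0 in both replicates, against 45.3% of the rest. When each library's autosomal mean was subtracted, 31.8% of pericentromeric windows were above 0 and 58.3% below it, against 41.5% and 49.9% of the rest, so the share above 0 was lower near centromeres on that scale as well.

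Enriched segments gave the same order. Segments with a value above 0 and an authors' -log10 p of 2 or more were counted as enriched. Of 146.8 Mb of pericentromeric sequence assayed in both replicates, 21.6% lay in enriched segments of both, against 28.0% of the rest and 27.6% of all kept windows. In single replicates the shares were 27.2% and 24.5% in pericentromeric sequence, against 33.8% and 31.9% in the rest.

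Windows at the other end of the chromosome arms had a like share above 0 in both replicates. They differed in the share far below it. The 1625 windows within 5 Mb of a chromosome end averaged -0.68 and -0.51, and pericentromeric windows exceeded them by 0.29 and 0.07 (mean 0.18, SD 0.16, n = 2). Above 0 in both replicates were 21.1% of pericentromeric and 21.2% of end windows. In single replicates the order was opposite, with 25.2% against 22.1% of end windows in replicate 1 and 23.6% against 26.2% in replicate 2. Below -1 in both replicates were 13.1% of pericentromeric and 25.5% of end windows. Pericentromeric windows held 6.81 protein-coding genes per Mb and had a median GC content of 40.2%, against 12.8 genes per Mb and 46.6% in end windows. In the rest, end windows included, the values were 7.21 genes per Mb and 39.8%, close to the pericentromeric ones. The part of gene density and GC content in the contrast with end windows was not tested.

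Within the 5 Mb, the lowest signal lay in the 2 megabases next to the edge. Averaged over all arms, windows within 1 Mb of the edge (n = 291) had a log2 ratio of -0.51 in replicate 1 and -0.65 in replicate 2. From 1 to 2 Mb the means were -0.49 and -0.50 (n = 300), from 2 to 3 Mb -0.27 and -0.29 (n = 314), from 3 to 4 Mb -0.29 and -0.34 (n = 316), and from 4 to 5 Mb -0.40 and -0.44 (n = 308). The order was the same in both replicates, with the lowest mean in the first megabase and the highest from 2 to 3 Mb. The first and second megabases differed by less than the replicate SD of the first (0.10, n = 2). Means near those of the second megabase also occurred farther out, with -0.47 and -0.52 in the 0.5 Mb centred 12.75 Mb from the edges. The innermost megabase minus the other 4 was -0.20 in means and -0.07 in medians.

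**Figure D1:**
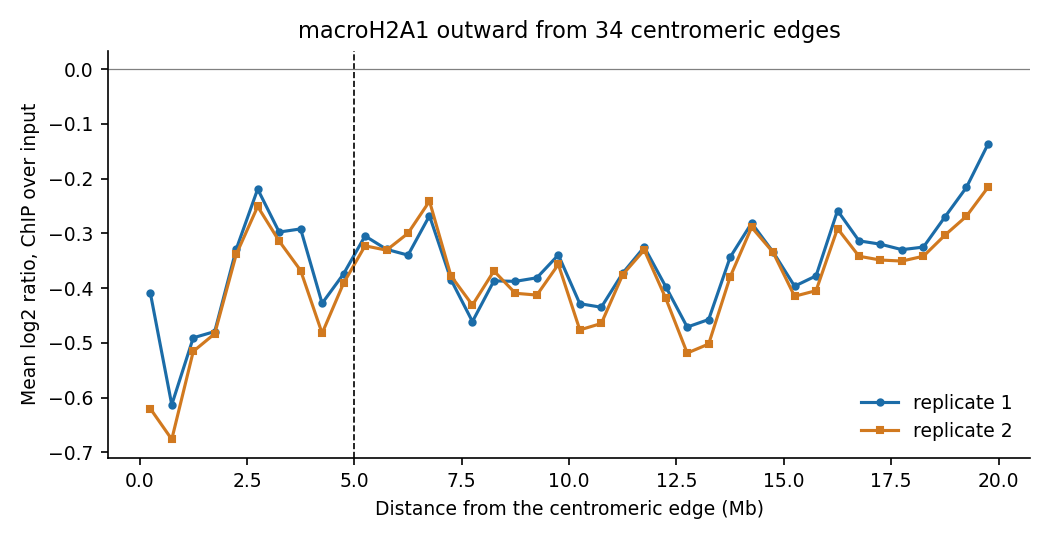
Mean log2 ratio of ChIP over input in 100-kb windows, grouped by 0.5 Mb of distance from the 34 centromeric edges (x axis, Mb), for replicate 1 (blue circles) and replicate 2 (orange squares); the dashed line marks 5 Mb. Both replicates have their lowest value between 0.5 and 1 Mb from the edge and their highest pericentromeric mean between 2.5 and 3 Mb.

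The share of windows above 0 in both replicates showed this more strongly. It was 6.53% (19 of 291 windows) from 0 to 1 Mb, 17.3% from 1 to 2 Mb, 29.9% from 2 to 3 Mb, 28.8% from 3 to 4 Mb and 21.4% from 4 to 5 Mb, and it was 29.5% at over 20 Mb. Thus by 2 Mb the share was near the background of 28.4%. The innermost count depends on the replicate: 40 windows (13.7%) were above 0 in replicate 1 alone and 21 (7.22%) in replicate 2 alone, against 33.1% and 32.1% of the rest. Leaving out chromosome 17, which held 6 of the 19 windows, lowered the share to 4.78%. With the autosomal means subtracted, 13.7% of innermost windows were above 0, against 39.2% from 2 to 3 Mb.

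Most windows of the first megabase were moderately low. Of its windows, 205 (70.4%) lay between -1 and 0 in both replicates, and 8.93% lay below -1, against 14% from 1 to 2 Mb. Among windows with a protein-coding gene, 19.8% lay below -1 in the first megabase and 20.3% at over 20 Mb. Among windows without one the shares were 2.22% and 0.44%, so neither kind was less often below -1 by a clear margin. The SD of single windows was 0.45 in the first megabase and 0.78 from 2 to 3 Mb. Fewer segments touched each window there, 2.13 and 1.66 in replicates 1 and 2, against 2.72 and 1.92 from 2 to 3 Mb. In 33 of 34 arms the mean of the first megabase was below 0 in both replicates, and in none was it above 0 in both. The exception was 1p, at 0.00 and -0.04 over 6 windows. Only 9 arms had any window above 0 in both replicates there, with 5 on 17q, 3 each on 1p and 2q, 2 each on 4q and 18q, and 1 each on 2p, 3q, 4p and 17p. On 14 of 17 chromosomes the innermost megabase was lower than the rest of that chromosome in both replicates, and on 16 of 17 its share of windows above 0 was lower.

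Windows without any protein-coding gene, called gene-free here, differed more from the rest than windows with genes did. Of the innermost windows, 61.9% held no protein-coding gene, against 32.8% of the rest. In the rest, gene-free windows were above 0 more often than genic ones: 37.6% of gene-free windows of the rest were above 0 in both replicates, against 24.6% of windows with 1 or more protein-coding genes. Within 1 Mb of the edge the gene-free share was 3.89% (7 of 180 windows). It was 14.5% from 1 to 2 Mb, 37.3% from 2 to 3 Mb, 40% (32 of 80) from 3 to 4 Mb and 28.7% from 4 to 5 Mb. Windows with a gene varied less, from 10.8% in the first megabase to 26.0% from 2 to 3 Mb.

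Over the whole 5 Mb, 21.3% of 602 gene-free windows were above 0 in both replicates, against 37.6% of 7115 gene-free windows in the rest, and their mean was -0.23 and -0.31, against -0.03 and -0.09 in the rest. The gene-free share was lower in pericentromeric sequence on 15 of 17 chromosomes, and so was the mean in both replicates. Chromosomes 10 and 18 went the other way. On chromosome 18, 72.4% of 29 pericentromeric gene-free windows were above 0, against 28.1% of the rest, and on chromosome 10 the shares were 53.1% of 49 and 35.7%. For windows with 1 or more protein-coding genes the shares were 20.9% in pericentromeric sequence and 24.6% in the rest.

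**Figure D2:**
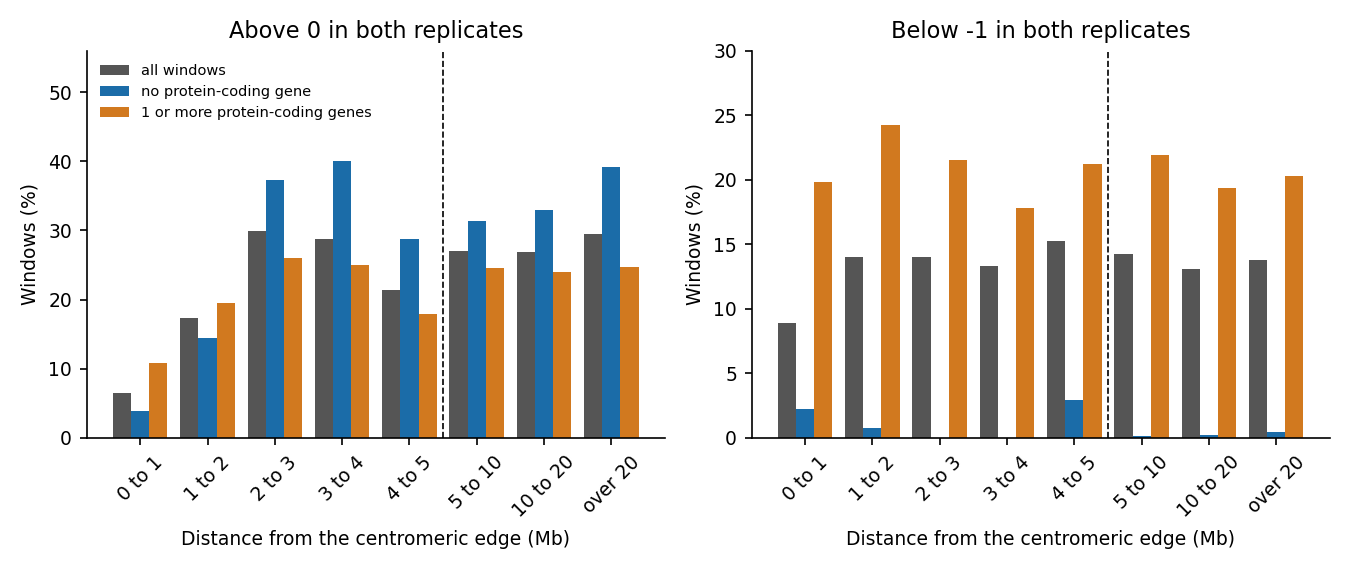
Percent of windows with a log2 ratio above 0 in both replicates (left) and below -1 in both replicates (right), by distance from the centromeric edge in Mb, for all windows (grey), windows with no protein-coding gene (blue) and windows with 1 or more (orange); bars left of the dashed line are pericentromeric. In the first megabase 3.89% of gene-free windows are above 0, against 39.2% at over 20 Mb, while windows below -1 are mostly genic, with 22 of 26 in the first megabase.

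Base composition and mappability also vary near centromeres. The share above 0 was lower in pericentromeric windows than in the rest in each of 4 GC classes. Under 38% GC it was 12.1% against 23.3%, from 38 to 41% it was 22.96% against 31.5%, from 41 to 45% it was 26.3% against 33.8%, and at 45% or more it was 27.1% against 29.7%. Among windows over 95% assayed it was 24.3% against 30.6%. Pericentromeric windows held 11.5 pseudogenes per Mb, against 4.63 in the rest. How reads from near-identical copies were placed is not given in the sources used here, and their part in these values was not tested. Across the 1529 windows the log2 ratio had a Pearson correlation of 0.02 with GC content, -0.19 with the number of protein-coding start sites, 0.10 with distance from the edge and 0.10 with the assayed share. These are descriptions, since neighbouring windows share segments.

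Satellite windows were few, and the replicates differed more over alpha-satellite than over the GGAAT repeat. Windows with at least 10 matches to the CENP-B box core given above, on either strand, numbered 20 of the 1529 pericentromeric windows (1.31%), 1 window of the rest and 0.0905% of all kept windows, and 17 of the 20 lay within 1 Mb of the edge. In replicate 1 they had a lowest value of -1.39, a median of 0.02 and a highest value of 0.53, and in replicate 2 a lowest of -2.01, a median of -0.52 and a highest of 0.35. Replicate 1 was higher in 18 of the 20, by a mean of 0.47, and 9 had opposite signs. Innermost windows with neither satellite motif (n = 262) averaged -0.53 and -0.66. Replicate 1 was also the higher in 187 of these 262, by a mean of 0.12. The sign of macroH2A1 over assembled alpha-satellite could therefore not be determined from these replicates.

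Only 2 alpha-satellite windows were above 0 in both replicates, at 2p (0.21 and 0.05, with 96 box matches) and at 1p (0.53 and 0.35). The lowest 2, at 18q (-1.39 and -2.01) and 4q (-0.98 and -1.44), also hold the genes ROCK1 and DCUN1D4. The largest gaps between replicates were at 7q (0.33 and -0.59), 19q (0.27 and -0.64) and 11p (0.26 and -0.70).

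Windows of the GGAAT repeat had the sign of most windows near the edge. With at least 100 matches to 2 GGAAT units in a row, on either strand, there were 15 pericentromeric windows (0.981%), 4 windows of the rest and 0.0819% of all kept windows. All 15 were below 0 in both replicates, with means of -0.57 and -0.61, and ranged from -0.81 to -0.24 in replicate 1 and from -0.84 to -0.31 in replicate 2. The 4p window with the most matches (4430) had values of -0.62 and -0.82. Of the 15, 12 lay within 1 Mb of the edge, where 85.6% of all windows were below 0 in both replicates. Innermost windows with neither motif averaged -0.53 and -0.66, close to the GGAAT means.

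**Figure D3:**
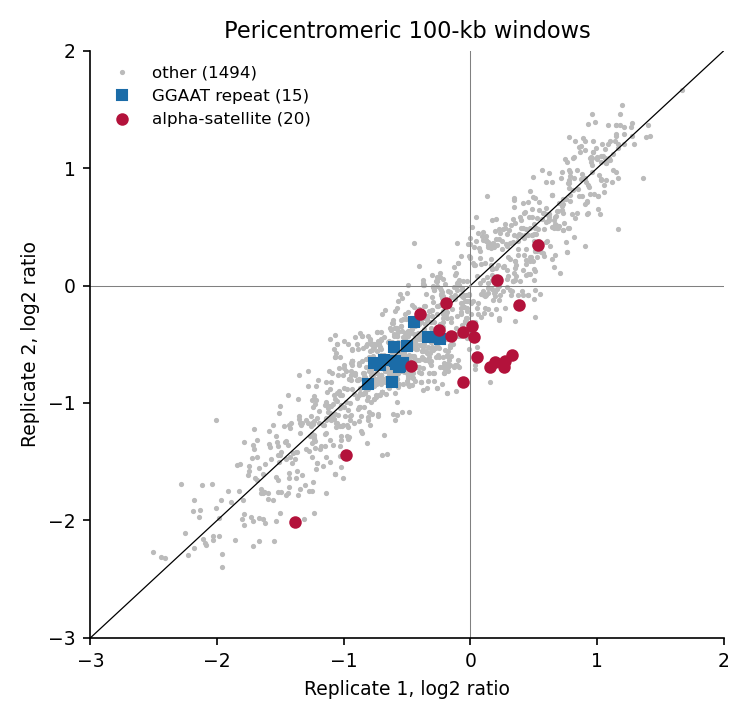
Log2 ratio of each pericentromeric 100-kb window in replicate 1 (x axis) and replicate 2 (y axis), with alpha-satellite windows in red, GGAAT windows in blue and the other 1494 in grey; the diagonal marks equal values. Of the 20 alpha-satellite windows, 18 lie below the diagonal, as do 904 of the other 1494, whereas the GGAAT windows lie along it below 0.

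At the edges themselves the segmentation does not separate the arms. In 33 of 34 pairs of chromosome and replicate, 1 segment had blocks on both sides of the centromeric stretch, so that the last value of the short arm and the first of the long arm were the same number. Those segments held 2.62 to 2406 kb of assayed sequence. On the 16 chromosomes where both replicates had one, the values were above 0 in both on 2 (chromosomes 8 and 12), below 0 in both on 7 and of opposite sign on 7. Their medians were -0.25 in replicate 1 (n = 17) and -0.21 in replicate 2 (n = 16).

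The arms varied over a range of 1.01 in mean log2 ratio, far above the replicate SD of an arm (median 0.06, highest 0.18, n = 2 each). Of 34 arms, 32 were below 0 in both replicates and 1, 18q, was above 0 in both. With the autosomal means subtracted, 9 arms were above 0 in both and 22 below. The order was similar in the replicates, with a Pearson correlation of 0.89 over the 34 arms, which share libraries and, in pairs, chromosomes. In the ranked order, 27 of 33 neighbouring arms lay closer to each other than the larger of their SDs, so single ranks are not resolved. The long arm was the higher one on 7 of 17 chromosomes.

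**Figure D4:**
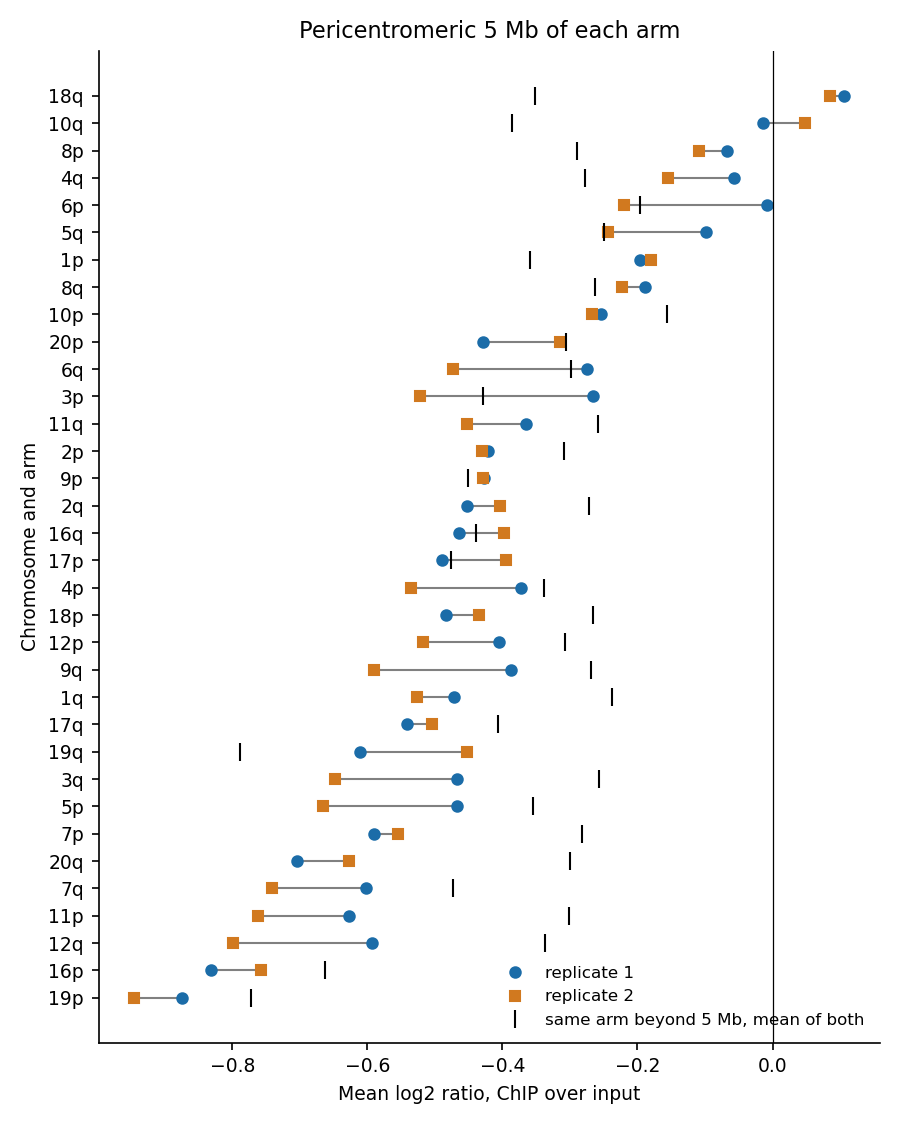
Mean log2 ratio over the kept pericentromeric windows of each of 34 arms in replicate 1 (blue circles) and replicate 2 (orange squares), with the mean of both replicates over the rest of the same arm (black ticks), ordered by the mean. Only 18q is above 0 in both replicates, and 19p and 16p are lowest.

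The highest arm was 18q, with means of 0.11 and 0.09 over 50 windows, of which 28 were above 0 in both replicates, against -0.33 and -0.37 over the rest of that arm. Then came 10q (-0.01 and 0.05 over 41 windows, against -0.40 and -0.38 in the rest of the arm), 8p (-0.07 and -0.11 over 50, against -0.31 and -0.27) and 4q (-0.06 and -0.15 over 50, against -0.20 and -0.36). At the other end, 19p averaged -0.87 and -0.95 over 49 windows, all below 0 in both replicates, against -0.86 and -0.69 in the rest of the arm. Next lowest were 16p (-0.83 and -0.76 over 44 windows), 12q (-0.59 and -0.80 over 50) and 11p (-0.63 and -0.76 over 46). No window was above 0 in both replicates on 16p, 19p, 9p or 9q.

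By chromosome, pericentromeric windows were lower than the rest in both replicates on 11 of 17, higher in both on 5 (chromosomes 4, 8, 10, 18 and 19) and split on chromosome 6. The largest deficits were on chromosome 11 (-0.22 and -0.33) and chromosome 12 (-0.18 and -0.31). The largest excess was on chromosome 10 (0.18 and 0.19). The excess on chromosome 19 (0.11 and 0.02) was set against a rest that averaged -0.85 and -0.71, the lowest of the 17 chromosomes. The share of windows above 0 was lower in pericentromeric sequence on 13 of 17. Leaving out 1 chromosome at a time kept the pooled difference between -0.11 and -0.08.

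High windows came in runs. The 322 windows above 0 in both replicates formed 126 runs, and 141 of them lay in 18 runs of 5 or more windows. The longest run, at chr8:39738993-41338992 on 8p, spanned 1600 kb with means of 0.66 and 0.68. It covered IDO1 and IDO2, enzymes of tryptophan breakdown, and SFRP1, a secreted inhibitor of Wnt signalling. On 10q a run of 1300 kb at chr10:44154668-45454667 averaged 0.97 and 1.13 and held 2 protein-coding genes, CXCL12, a chemokine of stromal cells, and TMEM72. On 10p a run of 1300 kb held CCNY and the Wnt receptor gene FZD8 (0.77 and 0.66).

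On 18q a run of 1000 kb at chr18:19510631-20510630 held GATA6, CTAGE1 and RBBP8 (0.91 and 0.94). On 6p a run of 1000 kb held BMP5, a bone morphogenetic protein, with COL21A1 and HMGCLL1 (0.85 and 0.59). On 8q a run of 900 kb (0.89 and 1.05) held SNAI2, a repressor of epithelial genes. These runs began between 1.0 and 2.5 Mb from the edge, none of them in the first megabase.

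**Figure D5:**
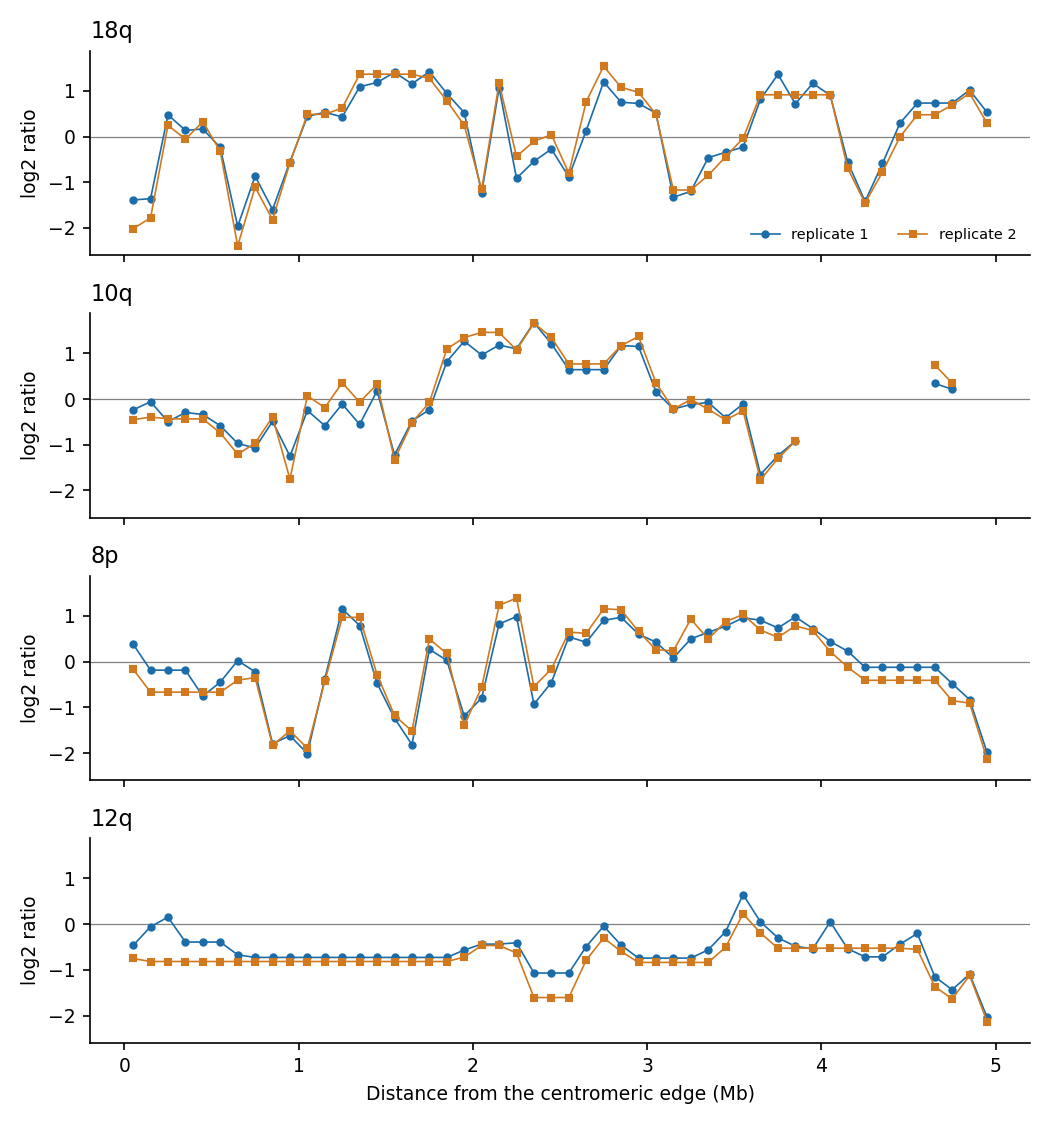
Log2 ratio of each kept 100-kb window by distance from the centromeric edge (Mb) on 18q, 10q, 8p and 12q, in replicate 1 (blue circles) and replicate 2 (orange squares); breaks in a line are windows not kept. On 18q, 10q and 8p windows above 0 form plateaus beyond the first megabase, while 12q stays below 0 in nearly all windows.

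Of the 20 highest windows, 6 lay on 10q, 6 on 18q and 4 on 5q, whereas the 20 lowest were spread over 14 arms with at most 3 on 1 (20q). The highest window, at chr10:44654668-44754667, had values of 1.67 and 1.66 and no protein-coding gene. Next were chr18:20010631-20110630 (1.40 and 1.36, no protein-coding gene) and chr18:21210631-21310630 (1.19 and 1.54), which overlaps ANKRD29 and LAMA3, a laminin chain gene. On 5q the windows chr5:52505444-52605443 (1.27 and 1.38) and chr5:52605444-52705443 (1.39 and 1.27) held a long noncoding RNA and no protein-coding gene. Of the 8 highest windows named by the rule, 6 held no protein-coding gene, against 39.4% of all 1529 pericentromeric windows.

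All 8 of the lowest windows named by the rule held protein-coding genes, as did 927 of all 1529 pericentromeric windows. These are few windows, picked as extremes. The lowest, at chr17:26962745-27062744 on 17q (-2.50 and -2.27), overlaps 8, among them RPL23A, a ribosomal protein gene, and SUPT6H, a transcription elongation factor gene. On 8q, chr8:48738644-48838643 (-2.45 and -2.31) lies in PRKDC, which encodes the catalytic subunit of the DNA-dependent protein kinase. On 20q, chr20:34219302-34319301 (-2.41 and -2.32) holds the splicing factor gene RBM39 and chr20:33019302-33119301 (-2.23 and -2.29) the ubiquitin ligase gene ITCH. On 18q, chr18:19110631-19210630 (-1.96 and -2.39) holds ESCO1 and SNRPD1 and lies 0.6 Mb from the edge and 0.4 Mb inward of the start of the run above 0 over GATA6.

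The longest runs below -1 in both replicates spanned 5 windows. They were 500 kb on 19p over a block of zinc finger genes that includes ZNF430 (-1.27 and -1.17), 500 kb on 6p over most of DST, the gene of the cytoskeletal linker dystonin (-1.45 and -1.60), and 500 kb on 16q over ITFG1 and PHKB (-1.58 and -1.76). The DST run on 6p lies directly next to the high run over BMP5 and COL21A1.

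Of 1038 protein-coding genes with at least 50% of their span in these windows, 1033 were measured. Above 0 in both replicates were 155 (15.0%), against 21.1% of all 16602 measured protein-coding genes and 21.5% of those outside. In single replicates 17.5% and 20.1% were above 0. Below 0 in both were 799 (77.3%), against 71.5% of all. The median gene was nevertheless not lower in both replicates, at -0.83 in pericentromeric sequence and -0.89 outside. It was -0.859 against -0.957 outside in replicate 1 and -0.815 against -0.806 in replicate 2. By distance, 13 of 124 genes in the first megabase were above 0, then 34 of 210, 37 of 221, 42 of 214 and 29 of 264. Long noncoding RNA genes were above 0 in 309 of 1174 cases (26.3%), against 37.4% outside, and pseudogenes in 311 of 1623 (19.2%), against 37.9% outside.

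Among the highest genes, with at most 2 taken per arm, HOPX (ENSG00000171476, chr4:57514155-57548043) had a log2 ratio of 1.41 and 1.54 over its span, and GZMK, a granzyme of cytotoxic lymphocytes, had 1.66 and 1.21. REG4 had 1.33 and 1.54. FOXS1 and MYLK2, a forkhead factor gene and the skeletal muscle myosin light chain kinase gene, lie close together on 20q and had 1.30 and 1.55 and 1.05 and 1.79. CTAGE1 had 1.45 and 1.36, ANKRD29 1.19 and 1.54, and ESM1, an endothelial proteoglycan gene next to GZMK, 1.52 and 1.21. VSX1, a homeobox gene of the retina, had 1.31 and 1.27, and CHRNB3, a nicotinic receptor subunit gene, had 1.46 and 0.97.

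Among the lowest genes, HNRNPF (ENSG00000169813, chr10:43881065-43904634) had -2.73 and -3.03. MCTS2 had -2.50 and -3.17, and USP22 had -2.84 and -2.70. CD2BP2 and TBC1D10B, neighbours on 16p that lie in the same segments, both had -2.64 and -2.89. ERGIC3, a gene of transport between endoplasmic reticulum and Golgi, had -2.75 and -2.67. PSMC3, a proteasome subunit gene, had -2.88 and -2.36, the adaptor gene TRAF4 -3.15 and -2.20, the semaphorin gene SEMA4C -3.04 and -2.36, and the GTPase gene DRG2 -2.67 and -2.52. HNRNPF and CXCL12, which lies in the high 10q run, are 1.53 and 2.51 Mb from the same edge.

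Promoters of genes above and below 0 differed in CG number. Of the pericentromeric genes, 777 matched a promoter in the RefSeq table. The median number of CG in 300 bases was 8 for the 99 matched genes above 0 in both replicates and 22 for the 624 below 0. Outside, the medians were 10 (n = 2356) and 25 (n = 8637). The printed promoters of HOPX, REG4, HNRNPF and USP22 show this contrast and that of CTAGE1 does not, and genes outside show the same difference.

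Several clustered gene families have members in this sequence. Zinc finger genes, many of which encode KRAB repressors of transposable elements, were low: 0 of 90 were above 0 in both replicates, 89 were below, and the median was -1.26 (2 above and 86 below with the autosomal means subtracted). Of pericentromeric protein-coding genes 15.0% were above 0 in both and 77.3% below, and of all protein-coding genes 21.1% and 71.5%. With the means subtracted, 247 and 711 of the 1033 pericentromeric protein-coding genes were above and below 0. Outside, 16 of 444 were above 0 and the median was -1.66, so zinc finger genes were low there too. The block of 37 on 19p had a median of -0.98 and a highest value of -0.66. The 3 highest, ZNF22 (-0.20 and -0.01), ZNF423 (-0.20 and -0.07) and ZNF479 (-0.38 and -0.50), stood far above the 3 lowest, ZNF646 and ZNF668 (-2.66 and -2.75 for both, which lie in the same segments) and ZNF629 (-2.68 and -2.83).

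Olfactory receptor genes encode odorant receptors and are silent in most tissues. Of 96, 10 were above 0 in both replicates (10.4%, against 15.0% of pericentromeric and 21.1% of all protein-coding genes). Below 0 in both were 81 (84.4%, against 77.3% and 71.5%). The olfactory median was -0.62, and -0.29 after the autosomal means were subtracted. Outside, 26 of 270 were above 0 and the median was -0.49. All 10 were in the 11q cluster of 71, led by OR6Q1 (0.50 and 0.72), OR9Q1 (0.50 and 0.41) and OR5B17 (0.50 and 0.38). These 3 shared their value in replicate 1. The median of the 11q cluster equalled its lowest value (-0.62), so many of its genes share segments and are not separate measurements. None of 12 on 11p was above 0. The lowest, OR5H15, OR5H2 and OR5H1 on 3q, shared 1 value (-0.70 and -0.81) because they lie in the same segments. The 32 immunoglobulin kappa variable segments on 2p, used only in B cells, were all below 0, with a median of -0.66 and a range of -0.75 to -0.40. Of pericentromeric and of all protein-coding genes, 77.3% and 71.5% were below 0 in both replicates. With the autosomal means subtracted, 22 of the 32 were below 0. This was a share similar to the 711 of 1033 pericentromeric protein-coding genes below 0 on that scale. The 3 highest shared 1 value (-0.51 and -0.28) and the 3 lowest another (-0.85 and -0.64), so the 32 are not separate measurements.

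Of 7 beta-defensin genes on 20q, which encode antimicrobial peptides, 1 was above 0 in both replicates (14.3%, against 15.0% of pericentromeric and 21.1% of all protein-coding genes), and outside 5 of 19 were (26.3%). That one was DEFB124 (0.14 and 0.35). The next, DEFB123, had -0.15 and -0.44, and DEFB115, the lowest, -0.68 and -0.73. Of 7 POTE and ANKRD family genes, primate-specific duplicates, none was above 0 in both (against the same 15.0% and 21.1%), and none of 6 outside. With so few genes this count cannot be set apart from those shares. POTEA had 0.21 and -0.38, and POTEC and ANKRD30B both had -0.70 and -0.76. NBPF10, the only member of its duplicated family measured here, had -1.07 and -1.16. Copies in these families and among the kappa segments are nearly identical, so their values are uncertain.

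The medians of the olfactory receptor, kappa variable, beta-defensin and POTE and ANKRD lists ran from -0.66 to -0.56. They were close to the median of -0.56 over pericentromeric windows and above the median of -0.83 over pericentromeric protein-coding genes. The zinc finger median of -1.26 lay below both.

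Signalling, developmental and housekeeping genes were read from lists of known genes that lie near centromeres. Of 12 measured genes of receptors and ligands, 3 were above 0 in both replicates (25%, against 15.0% of pericentromeric and 21.1% of all protein-coding genes) and 8 below. BMP5 had 0.92 and 0.86, CXCL12 0.64 and 0.77, and RET, a receptor tyrosine kinase of neural crest and kidney, 0.31 and 0.87. The lowest were GHR, the growth hormone receptor gene (-0.77 and -1.14), EGFR (-1.66 and -1.52) and PDGFRA (-2.06 and -2.17), the last 2 being growth factor receptors commonly made by fibroblasts. The list's median was -0.46, and -0.13 after the autosomal means were subtracted.

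Of 12 kinase and signalling genes, 1 was above 0 (8.33%, against the same 15.0% and 21.1%), TXK, a kinase of T cells (0.49 and 0.28). Its relative TEC had -0.14 and -0.03, and PDE4DIP had -0.03 and -0.27. The lowest were TAOK1 (-1.94 and -2.25), ROCK1, the gene of a cytoskeletal kinase, at the 18q edge (-1.70 and -2.28), and NF1, the neurofibromin gene (-1.64 and -1.98). The median was -1.47.

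Of 9 developmental transcription factor genes, 1 was above 0 (11.1%, against 15.0% and 21.1%) and 4 below, and 4 had opposite signs. GSX2, a homeobox gene of the forebrain, had 0.96 and 0.96. GATA6, an endoderm and heart factor gene, had -0.21 and 0.49 over its span although its flanks formed part of the 18q run, and its start site had -1.35 and 0.49, so its sign was not settled. TBX15, a T-box gene of skeletal and skin development, had -0.07 and 0.22. SALL1, a kidney and limb factor gene, had -0.47 and -0.38, TSHZ3 -0.56 and -0.39, and ISL1, a LIM homeobox gene of motor neurons and heart, -0.53 and -0.73. The list's median was -0.30, and 0.03 after the autosomal means were subtracted.

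Of 12 adhesion and matrix genes, 1 was above 0 (8.33%, against 15.0% and 21.1%), ITGAL, an integrin of leukocytes (0.41 and 0.82). CORIN, a protease of the natriuretic peptides, had 0.22 and -0.14 and the leukocyte integrin gene ITGAD -0.12 and 0.09, with opposite signs. PROS1, the anticoagulant protein S gene, had -0.50 and -1.07, ITGA2, a collagen receptor subunit gene, -1.08 and -0.99, and DST -1.50 and -1.67. The list's median was -0.39, and -0.06 after the autosomal means were subtracted. Of 4 channel and transporter genes, 2 were above 0 in both replicates (against 15.0% and 21.1%) and 2 below. SLC6A4, the serotonin transporter gene (0.50 and 0.53), and KCNJ12, a potassium channel gene with near-identical copies (0.19 and 0.64), were above 0. SLC2A13, an inositol transporter gene, was among those below (-1.07 and -1.58).

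Of 11 cell cycle and segregation genes, none was above 0 in both replicates and 10 (90.9%) were below, against 77.3% of pericentromeric and 71.5% of all protein-coding genes below. Their median was -1.33, but it differed widely between replicates, at -0.63 in replicate 1 and -1.83 in replicate 2. USP22 was lowest. ESCO1, an acetyltransferase of cohesin, had -2.17 and -2.69, and BCL2L1, which encodes the survival factor BCL-XL, had -2.11 and -2.14. CCNE1, the cyclin E1 gene, had -0.24 and 0.10, and RBBP8, a DNA repair gene partly in the 18q run and partly beyond it, -0.13 and -0.24. SHCBP1 had -0.44 and -0.60.

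The last list, of 4 genes, mixed immune and other genes. In both replicates 1 was above 0 (25%, against 15.0% of pericentromeric and 21.1% of all protein-coding genes) and 3 were below. Lists of 4 to 12 genes are too short for their counts to be set apart from the shares over all genes. NOS2, the inducible nitric oxide synthase gene, had 0.16 and 0.38 and LGALS9, a galectin gene, -1.23 and -0.57. SLAIN2, the gene of a microtubule regulator and no immune gene, had -1.64 and -1.93.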

How the data were processed

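MacroH2A1 ChIP was measured in 2 replicates of IMR90, and 2 inputs entered through the authors' ratio alone, having no file here. The submitters' processing notes name CASAVA 1.7 and hg19. Which aligner, segmentation program and library scaling were used is not given in the sources used here. The authors deposited, per replicate, genome segments made of blocks, and gave each segment a log2 value comparing ChIP with input and a −log10 p-value. That the logarithm has base 2 is an inference: 2 to the power of the values averages 0.988 and 0.976 over autosomes. Segments are long, and narrow peaks within them cannot be seen. The files hold no read counts, which leaves the depth unknown. Replicates were not pooled.

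Blocks and values were read with Python 3.11.15, numpy 2.4.6, pandas 2.3.3 and pysam 0.24.0, and figures were drawn with matplotlib 3.10.9. Window means were compared with a base-by-base computation on simulated segment values before use. Genes were taken from GENCODE 44 mapped to GRCh37, the same build as hg19. As the values are in 1 group, no test was run, and counts are set beside the same over all kept windows or genes. Named windows were the 8 highest and 8 lowest, named genes the 10 highest and 10 lowest, each with at most 2 per arm, and of each gene list the members were all named up to 6, or else the 3 highest and 3 lowest. Some genes that the rule names are left out of the text. Other genes inside named runs, windows and satellite windows are given by position. The windows and lists were chosen with earlier results of these data known. Alternatives varied window size, reach, the assayed minimum, edges, weights, scaling, thresholds, chromosomes and replicates.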

Additional observations from a re-analysis of the deposited data

How the results depend on the processing

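No paired analysis was possible because the 2 inputs have no file and the ChIP replicates form 1 group. Of 23 planned and 3 added alternatives, with the chromosomes also left out singly, none reversed the sign of a difference. The added ones (without segments spanning the centromere, without satellite windows, gene-free windows only, chromosomes singly) were chosen after seeing the data. Within 2 Mb the mean was -0.54, the difference from the rest -0.21, and 71 and 479 windows were above and below 0; within 10 Mb the difference was -0.061 with 759 and 2187 windows. Windows of 50 kb gave 681 above and 2125 below (22.3% above, against 30.7% of the rest), and 200-kb windows gave 149 and 571 (19.4%, against 26.1%). Equal chromosome weights gave a difference of -0.060. Medians gave -0.56, a difference of -0.14 and an innermost contrast of -0.071. Subtracting autosomal means gave -0.084 and 486 windows above 0. Thresholds of 0.5 and -0.5 left 153 windows above and 720 below (10.0% above, against 14.2%). Gene-free windows gave -0.27, a difference of -0.21, 128 above, 439 below and an innermost contrast of -0.33. The enriched share was 18.8% at a −log10 p of 5 or more, 14.1% at a log2 ratio over 0.5, 30.1% with either replicate and 24.5 to 27.2% with 1 replicate left out. The cause of these shifts was not tested where the number of windows does not set it.

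The 2 replicates limit precision, and unknown depth, unplaced copies and missing satellite arrays limit what can be said of the centromere itself.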
